A study of Mus musculus with 2 samples.

Results

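The genes described here are 10 genes of glycolysis and of the response to low oxygen: Hk1, Hk2, Pfkl, Aldoa, Tpi1, Pgk1, Eno1 and Ldha, which encode enzymes that carry glucose to lactate, and Vegfa and Ankrd37, which are known to be induced by hypoxia. Their probes were taken by gene symbol from the platform's annotation, without use of their signals. The genes themselves were chosen with earlier results of these data known. Of the 10 genes, 8 had a named probe (9 probes of 9762 named probes) and 7 were detected, against 6702 detected genes in all. Detection means that the brightest named probe of a gene reached a p-value below 0.01 on 1 array or both. No probe carried the symbol Pgk1 or Eno1 in the annotation used here, so these 2 genes have no value. The annotation covers the probes of the authors' value table, which all reached a detection p-value below 0.05 on 1 array or both, so whether dimmer probes of these 2 genes exist is not known here. The same limit holds for every gene below that had no named probe.

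SN4741 is a mouse dopaminergic neuronal line, immortalized and grown at 33 C per the labels. The control group was 1 array labelled control, which the series' design places at 0 h, and the other group was 1 array of cells after 12 h of Oxi-beta overexpression. Each array carried RNA pooled from 3 samples, so there was no replicate array and no test, and no p-value for a difference is given. The sources used here do not say what construct, if any, the control cells carried, and overexpression and the 12 h that passed cannot be told apart. Oxi-beta is a name for the product of Tnfaip8l1, for which 0 probes were named, so its level could not be checked.

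Glycolysis splits glucose into pyruvate in the cytosol and gains ATP without oxygen. Hexokinases trap glucose as glucose 6-phosphate, phosphofructokinase commits it to the pathway, aldolase and triose phosphate isomerase form and interconvert the triose phosphates, and phosphoglycerate kinase and enolase act in the steps that return ATP. Lactate dehydrogenase turns pyruvate into lactate and restores NAD+. When oxygen falls, HIF-alpha subunits escape hydroxylation by the EGLN enzymes and destruction through VHL, pair with ARNT and bind a short core, ACGTG or GCGTG, at genes that include many of these enzymes and Vegfa.

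The sequences before the annotated starts of 4 of the genes are shown because these genes gave the highest value (Pfkl), the lowest values (Vegfa and Ankrd37) and the window with most matches to the HIF core (Ldha). They are the 250 bases before the most upstream start that RefSeq lists for each gene, 5′ to 3′ on the strand of the gene, in assembly GRCm38.p6. Capitals mark every match to ACGTG or GCGTG on either strand. A stretch CACGTG matches ACGTG on both strands and was counted on each. The Pfkl window is chr10:78009808-78010057 on the minus strand, the Ldha window chr7:46845554-46845803 on the plus strand, the Vegfa window chr17:46032378-46032627 on the minus strand and the Ankrd37 window chr8:45999851-46000100 on the minus strand.
Pfkl: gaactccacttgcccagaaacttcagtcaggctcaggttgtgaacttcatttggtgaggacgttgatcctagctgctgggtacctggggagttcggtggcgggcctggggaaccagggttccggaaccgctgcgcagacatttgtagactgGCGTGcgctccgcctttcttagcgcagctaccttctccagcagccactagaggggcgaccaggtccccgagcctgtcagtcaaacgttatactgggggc
Ldha: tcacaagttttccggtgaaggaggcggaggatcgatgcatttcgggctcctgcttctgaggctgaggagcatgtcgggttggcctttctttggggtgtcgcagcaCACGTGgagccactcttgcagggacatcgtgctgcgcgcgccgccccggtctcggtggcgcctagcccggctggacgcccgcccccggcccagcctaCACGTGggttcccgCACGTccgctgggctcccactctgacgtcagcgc
Vegfa: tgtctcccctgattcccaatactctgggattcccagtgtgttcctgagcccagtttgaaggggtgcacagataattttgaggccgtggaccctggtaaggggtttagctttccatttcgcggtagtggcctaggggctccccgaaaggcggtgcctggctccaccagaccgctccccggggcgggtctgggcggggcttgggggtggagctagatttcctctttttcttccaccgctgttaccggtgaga
Ankrd37: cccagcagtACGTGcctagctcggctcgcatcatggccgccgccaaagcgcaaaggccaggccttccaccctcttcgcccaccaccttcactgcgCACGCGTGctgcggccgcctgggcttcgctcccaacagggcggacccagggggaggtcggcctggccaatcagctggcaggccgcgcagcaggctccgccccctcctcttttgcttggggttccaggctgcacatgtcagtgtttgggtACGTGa
The Ldha window held 5 matches in 3 capital stretches, at -145, -144, -48, -47 and -34 from the start. The Ankrd37 window held 4 matches, with ACGTG at -241 and at -6 and an overlapping pair of GCGTG at -155 and -152. The Pfkl window held 1 match, GCGTG at -99, and the Vegfa window held 0.

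Among all 10 genes, 6 windows held at least 1 match, against 38.6% of the 27025 genes with a window. ACGTG alone was in 4 of the 10 (Hk2, Pgk1, Ldha and Ankrd37), against 16.5% of genes, and CACGTG in 1 of the 10 (Ldha), against 6.04%. Genes detected in these cells held the motifs more often. Of the 5534 detected genes with a window, 59.8% held a match to either core and 22.7% held ACGTG, beside 4 and 3 of the 7 detected genes described here, so the share with either core was no higher than in detected genes at large. With every listed start of a gene counted, 9 of the 10 genes held a match, against 41.5% of genes. A gene with several starts has more windows in which to match, and Aldoa and Eno1 had 3, and Hk1, Ldha and Vegfa 2. No share over detected genes is given for this count, so it is not read as an excess. A match describes letters in these windows and is not a binding site, and a window without one says nothing of sites elsewhere.

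The arrays measured a fluorescence signal for each of 24613 probes. The share detected was 35.8% for control and 35.7% for overexpression, and the median signals of detected probes were 950.1 and 896. The lowest detected signals were 201 and 196. Differences below are overexpression minus control in log2 signal after background correction and quantile normalization, unless they are said to be deposited signals. Over the 6702 detected genes 3255 differences were positive and 3417 negative. Their median was -0.0036 and the central 95% ran from -0.34 to 0.33. That range was -0.49 to 0.47 for the 1994 genes with a mean signal under 500, -0.28 to 0.28 for 2526 genes between 500 and 2000, and -0.22 to 0.21 for 2182 brighter genes. In 999 genes with several probes detected on both arrays, the root mean square SD between probes of a gene was 0.149, which covers disagreement between probes and not between samples.

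All 7 detected genes lay inside the central 95% of differences, and none of the detected glycolytic enzymes was past 1.2-fold in either direction. Pfkl was highest at 0.21, Vegfa and Ankrd37 were lowest at -0.20 and -0.28, and Ldha, Tpi1, Aldoa and Hk2 lay between -0.067 and 0.082. Of the 7 genes, 0 were at least 1.2-fold higher, where 4.67% of all detected genes were, and 1 (Ankrd37) was at least 1.2-fold lower, where 5.19% were. At 1.5-fold there were 0 higher and 0 lower, against 0.582% and 0.433% of all detected genes. The median of the 7 genes was -0.034, beside -0.0036 over all detected genes. Relative to the median of all genes it ran from -0.048 to 0.010 over the settings, with Hk1 included where detection was at 0.05. In RNA of pooled cells, fewer cells of a kind and less transcript per cell cannot be told apart.

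**Figure D1:**
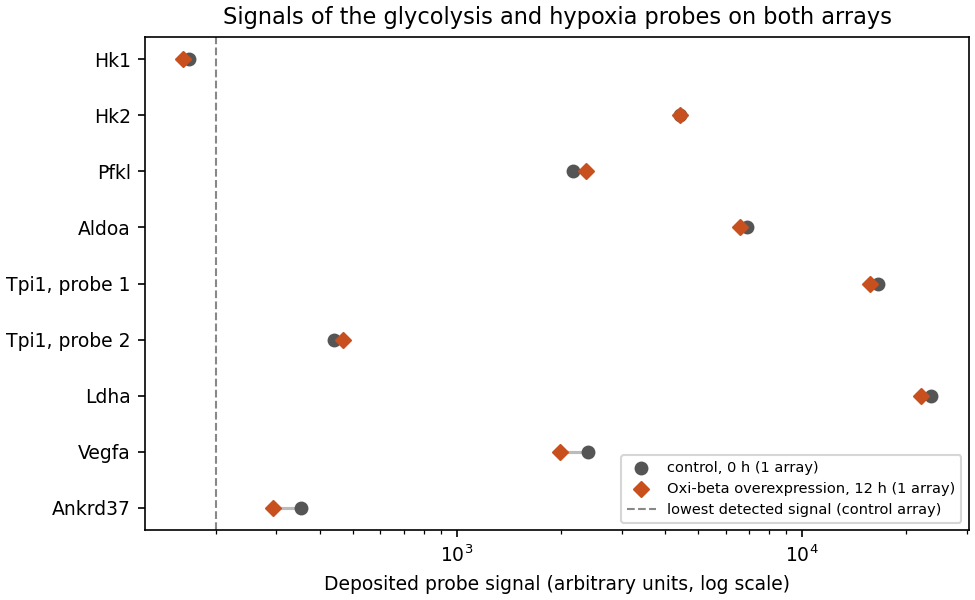
Deposited signals of the 9 probes on the control array (circles) and the overexpression array (diamonds), on a log axis, with the lowest detected signal of the control array as a dashed line. Hk1 lies below the line on both arrays, and the other 8 probes lie above it with both arrays close together. Probes differ in their binding, so positions compare arrays within a row and not genes with each other.

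The hexokinases were read by 1 probe each. Hk2, the insulin-responsive hexokinase that docks to mitochondria, had deposited signals of 4412 in control and 4411 in overexpressing cells, so the deposited signal fell by 0.0289%. The difference was 0.082 after normalization, and 74.0% of detected genes had a lower one. Its sign depended on the scaling, at -0.010 with median centring and -0.00042 as the plain ratio of signals. Both of those settings leave the median of all genes below 0, at -0.10 and -0.079, and relative to that median Hk2 stayed between 0.079 and 0.090 in all settings tried. Hk1, the widely expressed hexokinase of brain, had signals of 168 and 161 with detection p-values of 0.0207 and 0.0255. It was not well above background on either array, so no fold is given.

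Pfkl encodes the liver-type subunit of phosphofructokinase. Its signals were 2174 in control and 2368 in overexpressing cells, both with a detection p-value listed as 0. The array of overexpressing cells was the higher one by 8.92% in deposited signal and by 1.15-fold after normalization. Its difference of 0.21 was exceeded by 7.82% of detected genes and lay at the upper edge of the central 95% of genes as bright (-0.22 to 0.21). Over the settings it went from 0.12 to 0.21, and relative to the median of all genes from 0.20 to 0.22. It was read by 1 probe, so no second probe of the gene could be set beside it.

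Aldoa, the aldolase that cleaves fructose 1,6-bisphosphate, had signals of 6917 and 6582 on the control and overexpression arrays. Its normalized difference was -0.0057, near the middle of all genes, with 49.4% of them lower. Tpi1, the isomerase of the triose phosphates, had 2 probes that went in opposite directions. The brighter probe gave 16604 and 15711, a difference of -0.034, and the dimmer probe gave 440 and 469, a difference of 0.20. The gap of 0.23 between these probes of the same transcript record was larger than the difference of any of the 5 detected enzymes by its brightest probe. Tpi1 thus has no settled direction, at -0.034 by its brighter probe and 0.083 as the mean of both probes.

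Ldha encodes the lactate dehydrogenase subunit that favours lactate formation. Its signals were 23648 in control and 22140 in overexpressing cells, so the deposited signal fell by 6.38%. The normalized difference was -0.067, and it stayed between -0.11 and -0.067 over the settings. Relative to the median of all genes it went from -0.065 to -0.0051, and so came close to 0. Of all detected genes, 31.1% were lower still, so Ldha lay within the bulk of genes.

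Vegfa encodes the vascular endothelial growth factor that drives vessel growth. Its signals were 2389 in control and 1988 in overexpressing cells, so the deposited signal fell by 16.8%. The normalized difference was -0.20, or 1.15-fold lower, and 9.55% of detected genes were lower still. It was just inside the range of genes as bright (-0.22 to 0.21). The difference kept its sign in every setting tried, from -0.29 to -0.19, and relative to the median of all genes it went from -0.20 to -0.19.

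Ankrd37, a small ankyrin-repeat protein known as a target of HIF-1, had signals of 354 and 293, with detection p-values of 0 and 0.0024 as listed. The deposited signal fell by 17.0%, and the normalized difference was -0.28, or 1.22-fold lower. Of all detected genes, 4.07% were lower still. Genes as dim as Ankrd37 spread from -0.49 to 0.47, so the value was well inside their range. It was past 1.2-fold with the main processing, with median centring (-0.38) and as the plain ratio of signals (-0.27). Median centring and the plain ratio leave the median of all genes below 0. Ankrd37 fell short of 1.2-fold in the authors' value table (-0.20) and with a larger offset (-0.25). Vegfa and Ankrd37 thus had nearly the same drop in deposited signal, while background correction widened that of the dimmer Ankrd37.

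**Figure D2:**
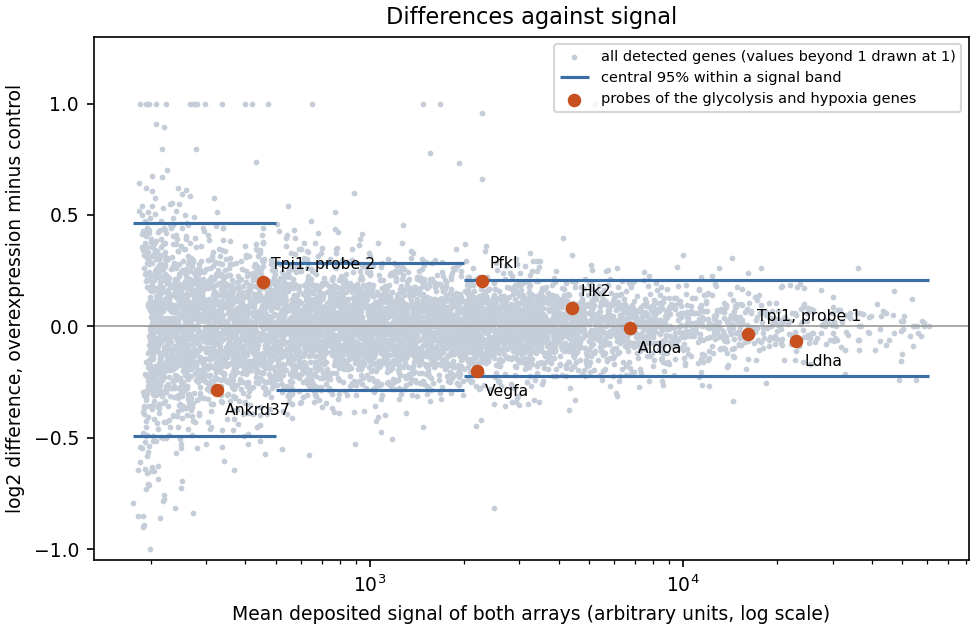
Log2 difference (overexpression minus control) of each detected gene against its mean deposited signal on a log axis, with the 8 detected probes of the 10 genes in orange and the central 95% of each signal band as blue lines. Every orange point lies between the lines of its band, with Pfkl near the upper line and Vegfa near the lower one.

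**Figure D3:**
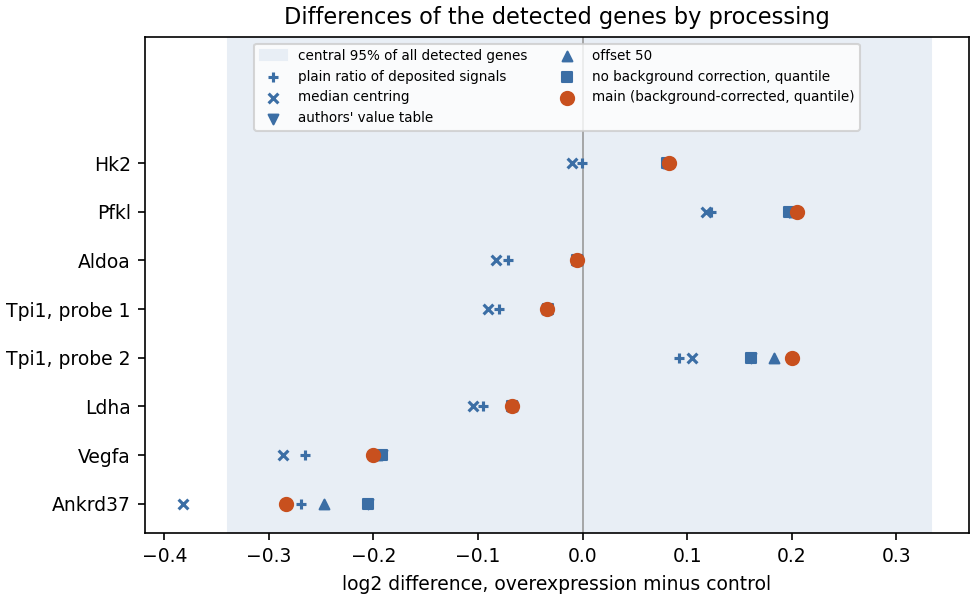
Log2 difference of each detected probe under the main processing (orange circles) and 5 alternatives (blue), over the central 95% of all detected genes under the main processing (shaded). Median centring and the plain ratio of signals shift the points to the left together, and Hk2 is the only probe whose points fall on both sides of 0.

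Other enzymes of glycolysis were as close to 0. Of the 21 listed, 9 had a named probe and 6 were detected, all on both arrays, with a median of 0.0041. Past 1.2-fold there were 0 of the 6, where 4.67% of all detected genes were higher and 5.19% lower. In a list this short, a count of 0 is near those shares. Eno3, the muscle enolase, was lowest at -0.20 (signals 1123 and 924), and Pkm, pyruvate kinase, was at -0.062. Pfkp, the platelet-type phosphofructokinase, was highest at 0.19 (444 and 471), near the value of Pfkl, while Pfkm, the muscle type, was at 0.0083. Eno2, the neuronal enolase, was at 0.092. Gapdh was read by 3 probes at 0, 0.025 and 0.042, and its brightest signal (59092) lay close to the highest on the array (62237). Quantile normalization ties the brightest probes to each other, so a difference of 0 there is partly set by the method.

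Transporters and regulators of the pathway held a few lower genes. Of 12 transporters, 4 were detected and 0 passed 1.2-fold, where 4.67% of all detected genes did so upward and 5.19% downward. Slc2a1, the GLUT1 glucose carrier and a HIF target, was at -0.098 and Slc2a8, an intracellular glucose carrier, at -0.23. Slc2a3, the neuronal GLUT3, was at 0.0050, and Bsg, the chaperone of lactate carriers, at 0.0075. Of 16 regulators, 8 were detected, with 4 positive and 4 negative values and a median of -0.042. The negative ones were Pdk4 at -0.33 (signals 896 and 689), Pdk1 at -0.20 and Pdk3 at -0.20, kinases that switch pyruvate dehydrogenase off, and Pdp1, a phosphatase that switches it on, at -0.13. Pdk4 was the only regulator of the 8 past 1.2-fold, at 1.25-fold lower, where 5.19% of all detected genes were at least 1.2-fold lower. The positive ones were Pfkfb3 (0.17), Myc (0.17), Pfkfb2 (0.10) and Pfkfb4 (0.044), of which Pfkfb2 and Pfkfb4 turned negative under some settings (to -0.013 and -0.076), and the Pfkfb enzymes set the level of the activator of phosphofructokinase.

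The other hypoxia-inducible genes split in both directions. Of 44 listed, 25 had a named probe and 23 were detected, all on both arrays, with 9 positive, 14 negative and a median of -0.054. Past 1.2-fold, 4 were higher and 3 lower, where 4.67% and 5.19% of all detected genes were. Stc2, a secreted glycoprotein, was highest at 0.55, from 220 to 271 in signal and so near background. Car12, a carbonic anhydrase, was at 0.41 (494 and 593), Tfrc, the transferrin receptor, at 0.32 (4048 and 4764), and Hilpda, a lipid droplet protein, at 0.28 (599 and 665). The lowest were Angptl4, an inhibitor of lipoprotein lipase, at -0.43 (309 and 243), Bnip3l, a mitophagy receptor, at -0.38 (4977 and 3660), and Pdgfb, a growth factor chain, at -0.27 (333 and 280). A second named probe of Angptl4, not detected on either array (147 and 153), went the other way at 0.15. Of these 7 genes, 3 fell short of 1.2-fold under some settings, with values nearest to 0 of 0.15 for Hilpda, 0.23 for Tfrc and -0.19 for Pdgfb. Beside the central 95% of genes in their own signal band, Stc2, Car12, Tfrc and Bnip3l lay outside, Hilpda lay at the edge, and Angptl4 and Pdgfb lay inside.

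The oxygen-sensing machinery itself differed little, apart from Crebbp. Of 18 listed genes, 11 had a named probe and 10 were detected, with 4 positive, 6 negative and a median of -0.043. No named probe carried Hif1a or Epas1, which encode the main HIF-alpha subunits. Arnt, their partner, was at 0.082, Vhl, which targets HIF-alpha for destruction, at -0.11, and Egln2, a HIF prolyl hydroxylase, at 0.064. Crebbp, a coactivator that HIF and many other factors share, was 1.39-fold higher by its brighter probe (578 and 721). Its second probe (407 and 490.1) gave 0.44, beside 0.47 for the first. The lowest of the list were Arntl, a clock factor related to ARNT, at -0.15, and Rbx1, a ring protein of cullin ligases, at -0.14 by its brighter probe and 0.049 by its other. Eloc, an elongin of the VHL complex, was at 0.19.

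Of 9 listed relatives and receptors of Vegfa, 6 had a named probe and 4 were detected, 3 of them on both arrays. Values were negative for 3 and positive for 1, where 3417 of all 6702 detected genes were negative. Of the list 0 passed 1.2-fold, where 4.67% of all detected genes were higher and 5.19% lower. The median of the list was -0.15, or -0.12 with Vegfc at its bound. Vegfb, a relative of Vegfa, was at -0.17 (signals 6507 and 5485). Nrp1, a coreceptor of Vegfa, was at -0.15 and -0.20 by its probes (3560 and 3032 for the brighter one). Vegfc, which acts in lymphatic vessels, passed detection in control cells alone (208 and 192), which makes it at least 1.06-fold lower. Flt1, a VEGF receptor, was at 0.015. Over the settings the median of this list went from -0.24 to -0.11, and relative to all genes from -0.15 to -0.096.

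Pathways that share intermediates with glycolysis had medians slightly above that of all genes. For the genes past 1.2-fold named below, the shares over all detected genes were 4.67% higher and 5.19% lower. The pentose phosphate list had 8 of 12 genes detected, 6 positive and 2 negative, with a median of 0.052. H6pd, which makes NADPH in the endoplasmic reticulum, was highest at 0.14, and Rpe, ribulose phosphate epimerase, lowest at -0.27 (602 and 487), its only gene past 1.2-fold, which it was not under every setting (nearest to 0 at -0.22). Pyruvate dehydrogenase and the citric acid cycle had 18 of 25 genes detected, 11 positive and 7 negative, with a median of 0.031. Idh3b, a subunit of isocitrate dehydrogenase, was at 0.14, Pdhb, a subunit of pyruvate dehydrogenase, at -0.19 and Mdh2, malate dehydrogenase, at -0.18. Sucla2, a subunit of succinyl-CoA synthetase, passed detection in overexpressing cells alone (180.4 and 199.7). Its fitted difference of 0.35 was the list's only one past 1.2-fold, but it went down to 0.15 over the settings, and the bound is at least 1.04-fold higher. Gluconeogenesis and glycogen metabolism had 9 of 19 genes detected, 6 positive and 3 negative, with a median of 0.080. Ugp2, which makes UDP-glucose for glycogen, was lowest at -0.26 (1008 and 801). G6pc3, a glucose 6-phosphatase, had probes at 0.20 and -0.15. Phka1, a regulatory subunit of phosphorylase kinase, passed detection in overexpressing cells alone (186 and 249). Its deposited signals gave a ratio of 1.34, and its bound with the main processing was at least 1.51-fold higher. The difference of Phka1 ran from 0.42 to 0.80 over the settings, so its place past 1.5-fold rested on the background correction. The sign of these 3 medians depended on the scaling, since their lowest values over the settings were -0.023, -0.055 and -0.032, while relative to the median of all genes they ran from 0.029 to 0.083.

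**Figure D4:**
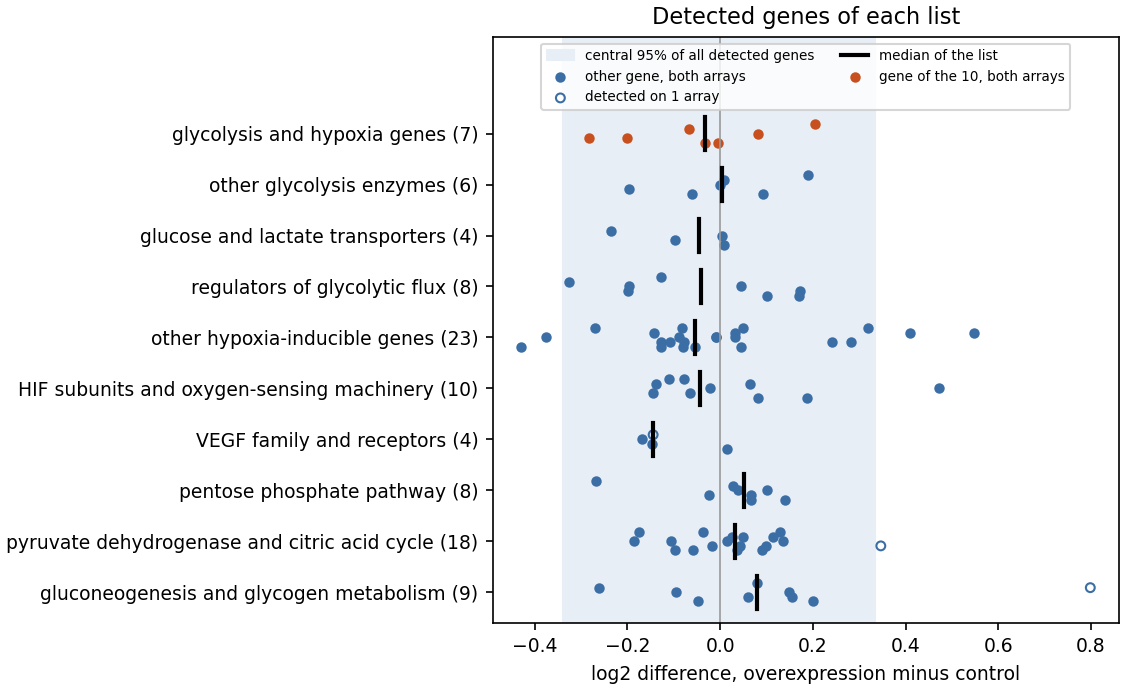
Log2 differences (overexpression minus control) of the detected genes of each list, with the number detected in brackets, the list's median as a black bar and the central 95% of all detected genes shaded. Orange points are the 7 detected genes of the 10, open circles are genes detected on 1 array only, drawn at their fitted value. Among genes detected on both arrays, the other hypoxia-inducible genes span the widest range, from -0.43 to 0.55.

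Markers of cell types were read in part. Of 11 dopaminergic markers, 3 had a named probe and were detected (Nr4a2, En1 and Foxa2), with signals summed over these genes of 1027 in control and 1065 in overexpressing cells, while no named probe carried Th or Slc6a3, which define dopamine neurons. Of 10 neuronal markers 5 were detected, with sums of 5786 and 5179 that Stmn2 (4050 and 3357) dominated. Of these 5 genes, 4 were positive (Uchl1, Syn1, Tubb3 and Nefm) and Stmn2 was negative, with a median of 0.17, or 0.11 with bounds. Tubb3 (181 and 202) and Nefm (185 and 226) passed detection in overexpressing cells alone and lay near background. Uchl1 was at 0.11 and went down to -0.0018 over the settings. Of 6 fibroblast markers 4 were detected, with sums of 69683 and 63186. All 4 fibroblast genes were lower, from Pdgfrb at -0.40 to Vim at -0.066. Of the 7 detected glycolysis and hypoxia genes 5 were negative, and of all 6702 detected genes 3417 were. Of 6 astrocyte markers 1 was detected, Slc1a3 on the control array only, and of 5 myeloid and 4 endothelial markers 0 had a named probe. For a marker without a named probe, a dim probe and no probe cannot be told apart here. The part of these markers in the values of the glycolysis and hypoxia genes was not tested.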

How the data were processed

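RNA of SN4741 cells was hybridised to 2 single-colour Illumina bead arrays, 1 per group, and each pool held 3 samples. BeadStudio is the tool in the submitters' processing notes. The deposited table of signal intensity is not normalized, per the file headers, and holds a detection p-value per probe and array, per the file headers. Its test column was taken as the overexpression array. Across 11090 probes, each column of the authors' value table correlated with the signal of its own array at r = 0.99998. With the signal of the other array, r was 0.9962 for the control values and 0.9961 for the overexpression values. The authors' deposited log2 value table has columns with the same sorted values, as quantile normalization gives. The log2 scale is read from these values, and genes were not centred (column medians 9.19).

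Signals were corrected with limma 3.58.1 in R 4.3.3 (nec, offset 16), then normalized by quantiles, and log2 was taken. Quantile normalization assumes like distributions on the arrays, and background correction widens differences of dim genes. The steps were tested on simulated data, where recovery was scored only for bright probes with differences of at least 1.5-fold. Recovery of smaller differences, and of differences in dim probes, was not tested. Where a gene had several named probes, the one with the highest mean signal stood for it. Of 11090 probes, 9762 had 1 symbol, 1328 had none and 0 had several, and 0 symbols needed updating through Entrez identifiers in RefSeq (GRCm38.p6). In the lists, 1 symbol was matched through a synonym. A fold written as at least sets the detected array against the higher of the lowest detected value and the probe's own on the other. All 10 genes were described with every probe, and of each of 9 other lists the genes with highest and lowest differences among those detected on both arrays, those past 1.2-fold, and those detected on 1 array with bounds. Pdp1, Pfkfb4 and Egln2 fall outside that rule and were named after their values were seen. The genes and lists were chosen with earlier results of these data known. Alternatives are described with the results that depend on them. With 1 array a group, the number of arrays sets the precision.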

Additional observations from a re-analysis of the deposited data

How the results depend on the processing

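No paired analysis was possible because each group had 1 array, and no replicate could be left out. The differences of the 7 detected genes moved by less than 0.149, the SD between probes of a gene, in each of 8 alternatives. The medians of the 10 gene lists that are not cell type markers also moved by less. Each of these medians was itself smaller in size than 0.149, so it could change sign within that limit. Those of other glycolysis enzymes (-0.060 to 0.015) and of transporters (-0.16 to 0.0050) did, as did the 3 medians of pathways that share intermediates. The count of the 7 genes at least 1.2-fold lower was 1 in the main processing. It was 0 without background correction, with an offset of 50 and in the authors' value table. With median centring and as the plain ratio of signals it was 2, and these settings do not set the median of all genes to 0 (-0.10 and -0.079). Counts over all genes depended more on the processing. Those at least 1.2-fold higher (313) and lower (348) were 155 and 167 without background correction, 156 and 167 in the authors' table, 140 and 896 with median centring, and 563 and 578 with detection at 0.05. The plain ratio gave 66 higher, and 11.9% of its calls were higher against 47.4% in the main processing and 13.5% with median centring. Those at least 1.5-fold higher (39) and lower (29) were 22 and 2 without background correction and in the authors' table, 21 and 3 as the plain ratio, 78 and 69 with detection at 0.05, and 16 and 6 with detection on both arrays. The lower count was 13 with an offset of 50 and 50 with median centring. Of these, 87.5% were higher as the plain ratio, 91.7% in the authors' table and without background correction, 68.3% with an offset of 50, 37.5% with median centring and 72.7% with detection on both arrays, against 57.4%. Hk1, and genes near the lowest detected signals (201 and 196), are limited by signal over background.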
